A study of Homo sapiens with 12 samples.

Results

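The genes described here are the amino acid transporter genes of HK-2 cells, taken as every gene of 7 solute carrier groups: SLC3A2 and all measured members of SLC1A, SLC6A, SLC7A, SLC36A, SLC38A and SLC43A. A probe set belonged to them if the array annotation paired it with 1 such gene symbol and no other. This gave 55 genes on 135 probe sets, of 19775 genes and 54675 probe sets in all. A probe set passed the filter when 3 or more of the 12 arrays exceeded 4. This left 56 probe sets and 30 testable members, of 10729 tested genes. Membership rests on the gene symbol, so a few members carry something other than an amino acid: SLC6A3 carries dopamine, SLC6A8 creatine and SLC43A3 nucleobases.

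Amino acid transporters set the supply of amino acids for protein synthesis, for glutathione and for growth signalling. Some are exchangers that swap one amino acid for another, others use the sodium or proton gradient to load the cell, and a few sit on the lysosome and report amino acids to the kinase complex mTORC1. In the kidney's proximal tubule, apical carriers reclaim filtered amino acids and basolateral carriers return them to the blood. Many of these genes are known targets of the transcription factor ATF4 in the integrated stress response, in which phosphorylation of the initiation factor eIF2 lowers general translation and favours ATF4.

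HK-2 is an immortalized line of human proximal tubule epithelium, and 1 line was used throughout. Its cells received a high dose of the compound the labels call Ota for 24 h or for 72 h, or the control vehicle for 24 h or for 72 h, with 3 arrays in each of the 4 groups. The labels give neither the amount nor the full name of Ota. All cells were seeded 24 h earlier, were near confluence when treated and grew in a medium with hormones and growth factors. The labels call the arrays biological replicates and say no more about the cultures, so the p-values measure the spread between these arrays. The values are log2 GCRMA expression values, so a difference of 1 is a doubling, and a change here means a Benjamini-Hochberg adjusted p under 0.05 in limma over all 10729 genes.

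Short stretches of promoter are shown first because 5 of the members carry, near a start site, the letters that ATF4 is known to bind with its partners. The windows are RefSeq sequence of build GRCh38.p14 that runs 250 bases before to 50 bases after a start. Such a window was at hand for 23 of the 30 tested members, on 38 windows. The amino acid response element was searched as TGATGNAA on both strands. It was found in 5 of the 23 genes and 5 of the 38 windows, against 4.46% of all genes and 3.62% of all windows. Each line gives the strand of the gene that reads 5′ to 3′, with the matched letters in capitals and 10 bases, or as many as the window holds, on either side. The SLC1A4 stretch lies at chr2:64989382-64989409 on the plus strand, in 1 of its 2 windows. The SLC1A5 stretch lies at chr19:46784894-46784921 on the minus strand, in 1 of its 3 windows. The SLC38A1 stretch lies at chr12:46266503-46266530 on the minus strand, in 1 of its 2 windows. The SLC3A2 stretch lies at chr11:62881726-62881748 on the plus strand, in 1 of its 3 windows. The SLC7A1 stretch lies at chr13:29595664-29595691 on the minus strand. The match begins 7 bases before the start in SLC1A4, 97 before it in SLC1A5 and 4 before it in SLC38A1. It begins 37 bases after the start in SLC3A2 and 7 after it in SLC7A1.
SLC1A4: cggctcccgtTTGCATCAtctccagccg
SLC1A5: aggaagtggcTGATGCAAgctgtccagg
SLC38A1: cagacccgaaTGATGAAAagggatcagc
SLC3A2: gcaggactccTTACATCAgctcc
SLC7A1: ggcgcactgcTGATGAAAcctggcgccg
In SLC1A4 and SLC3A2 the element reads on the opposite strand. The core of the antioxidant response element, to which NRF2 is known to bind, was searched as TGACNNNGC on both strands and lay in 6 of the 23 genes, against 16.1% of all genes. The 6 genes were SLC1A5, SLC3A2, SLC7A1, SLC7A5, SLC7A6 and SLC7A7. SLC7A1 held both elements in its only window, with the core 85 bases before the start. SLC1A5 held them in different windows. The SLC3A2 promoter also held both in the same window, with the core 37 bases before the start at chr11:62881652-62881680 on the plus strand.
SLC3A2 antioxidant core: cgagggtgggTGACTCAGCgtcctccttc
A match describes letters and not binding, and both motifs were chosen after the values of these genes were known.

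Arrays of 1 group correlated at 0.954 to 0.994 over the tested genes. Epithelial markers were present (4 of 4), though not all at equal levels in Ota and control cells. CDH1 averaged 7.45 in Ota cells and 7.74 in control cells at 24 h, and 5.62 and 8.80 at 72 h. KRT8 averaged 11.56 and 11.43 at 24 h, and 11.28 and 10.68 at 72 h. The group means of EPCAM ran from 12.69 to 13.30 and those of KRT18 from 10.87 to 12.65. Of 12 proximal tubule markers only PAX8 could be tested, and LRP2, CUBN, AQP1 and SLC34A1 were among the 11 without a tested probe set. PAX8 averaged 7.54 in Ota cells and 10.08 in control cells at 24 h, and 7.99 and 9.58 at 72 h. No marker of other nephron segments, endothelium or leukocytes could be tested (0 of 5, 0 of 3 and 0 of 3), whereas 2 of 4 fibroblast genes could. COL1A1 averaged 6.18 in Ota cells and 8.11 in control cells at 24 h, and 7.63 and 7.08 at 72 h. LUM averaged 9.73 and 9.04 at 24 h, and 8.81 and 7.26 at 72 h. The part of these markers in the results was not tested. Several array-wide measures of Ota and control arrays lay apart. The median of the tested genes was 7.40 ± 0.16 on the Ota arrays and 7.97 ± 0.05 on the control arrays at 24 h, and 7.68 ± 0.05 and 7.96 ± 0.02 at 72 h (SD, n = 3 each). The poly-A spike-ins, transcripts added during preparation, exceeded those of control arrays by 1.85 (24 h) and 0.89 (72 h). The 18S ribosomal RNA signal did so by 1.58 and 1.34. Each of these differences had an exact permutation p = 0.1, the smallest that 3 against 3 arrays allow. Other scalings of the arrays move the Ota comparisons: the shift of the all-gene median at 24 h and 72 h was 0.20 and 0.07 with quantile normalization, 0.56 and 0.28 with centring on the median, and -1.85 and -0.89 with scaling to the spike-ins. Where 1 of these 3 scalings ends a call of Ota against control, this is given beside the gene. In whole cultures, fewer cells of a kind and less RNA per cell cannot be told apart.

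More of the amino acid transporter genes fell than rose with Ota at both times, as was also true of all tested genes. At 24 h 15 of the 30 tested members fell and 4 rose, a share of 63.3% called, against 61.3% of all tested genes (40.5% fell, 20.8% rose). At 72 h 18 fell and 4 rose, a share of 73.3%, against 60.1% of all genes (35.2% fell, 24.8% rose). The median log2 fold change of the members was -0.60 at 24 h, against -0.24 over all genes, and -1.08 at 72 h, against -0.11. The 3 Ota arrays lay wholly apart from the 3 control arrays in 21 members at 24 h and 26 at 72 h, against 65.7% and 73.7% of all genes. At 24 h the balance depends on the scaling: 7 members rose and 11 fell with quantile normalization, 8 and 9 with centring, and 1 and 28 with spike-in scaling. At 72 h the same counts were 5 and 17, 8 and 17, and 0 and 24. In all 3 scalings 9 of the 15 falls at 24 h and 17 of the 18 falls at 72 h stayed calls, against 1 of 4 and 0 of 4 rises. These counts include SLC6A3, SLC38A5, SLC6A9 and SLC6A12, which passed the filter only through the groups where they were high. The members with no call move with the scaling too. All 11 of them at 24 h fell with spike-in scaling (-2.53 to -1.19), whereas SLC7A5, SLC38A10 and SLC43A2 rose with quantile normalization and with centring, and SLC38A1 with centring. At 72 h spike-in scaling gave falls of SLC36A1 (-1.15), SLC36A4 (-0.73), SLC38A12 (-0.65), SLC38A5 (-1.13), SLC6A3 (-0.75) and SLC7A5 (-1.31). Rises at 72 h were added for SLC38A12 with quantile normalization and with centring, and for SLC38A1, SLC6A3 and SLC7A6 with centring.

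**Figure D1:**
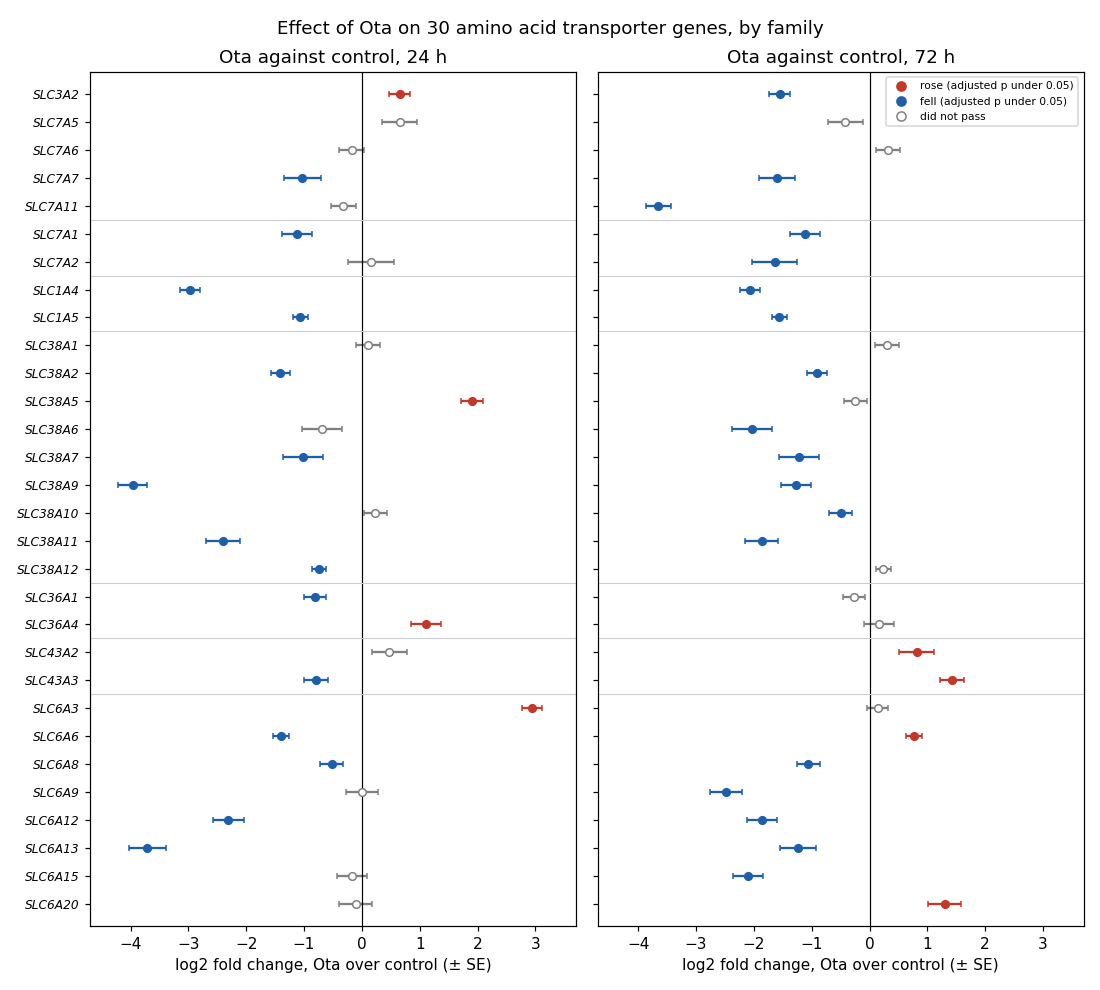
Log2 fold change of Ota over control for the 30 tested transporter genes at 24 h (left) and 72 h (right), with bars of 1 standard error, grouped by family. Filled red points rose, filled blue points fell (limma adjusted p under 0.05) and open points did not pass. At 24 h SLC38A9, SLC6A13 and SLC1A4 lie farthest to the left and SLC6A3 farthest to the right. At 72 h SLC7A11 lies farthest to the left. With spike-in scaling the rises of SLC3A2 and SLC36A4 at 24 h and of SLC43A2 and SLC6A6 at 72 h become falls or lie below 0. With centring the 24 h value of SLC6A8 lies just above 0.

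Several of these genes also changed with time in culture. In Ota cells at 72 h, against 24 h, 13 members rose and 7 fell, 66.7% of the members against 60.3% of all genes (37% rose, 23.3% fell). In control cells 9 members rose (SLC1A4, SLC1A5, SLC38A1, SLC3A2, SLC6A15, SLC6A9, SLC7A1, SLC7A11 and SLC7A5) and 4 fell (SLC38A11, SLC43A3, SLC6A20 and SLC6A6). That is 43.3% of the members, against 25.5% of all genes (12.2% rose, 13.3% fell). In all 3 scalings 10 of the 13 rises and 2 of the 7 falls of Ota cells stayed calls, and 8 of the 9 rises and 2 of the 4 falls of control cells. In Ota cells the rises of SLC1A5, SLC3A2 and SLC7A6 ended with quantile normalization and with centring. The falls of SLC36A4, SLC38A11, SLC38A6, SLC6A15 and SLC6A8 in Ota cells ended with spike-in scaling, where SLC6A15 and SLC6A8 turned to 0.10 and 0.22. The arrays of the 2 times did not overlap in 20 members of Ota cells and 22 of control cells, against 62.1% and 53.5% of all genes. Of the 30 members 14 had their highest group mean in control cells at 72 h, against 28.4% of all genes. The effect of Ota itself changed with time in 18 members, 11 towards lower and 7 towards higher values, against 49.5% of all genes (19.9% and 29.6%). The count of 11 became 7 without replicate 1 of the 24 h Ota cells, replicate 1 of the 24 h control cells, or replicate 1 or 3 of the 72 h control cells. The calls counted over time include SLC6A9 in control cells and SLC6A3 and SLC38A5 in Ota cells. Each of these genes passed the filter only through the group where it was high. SLC6A9 is also among those with their highest mean in 72 h control cells. The comparisons share arrays, so their counts are not independent of each other.

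**Figure D2:**
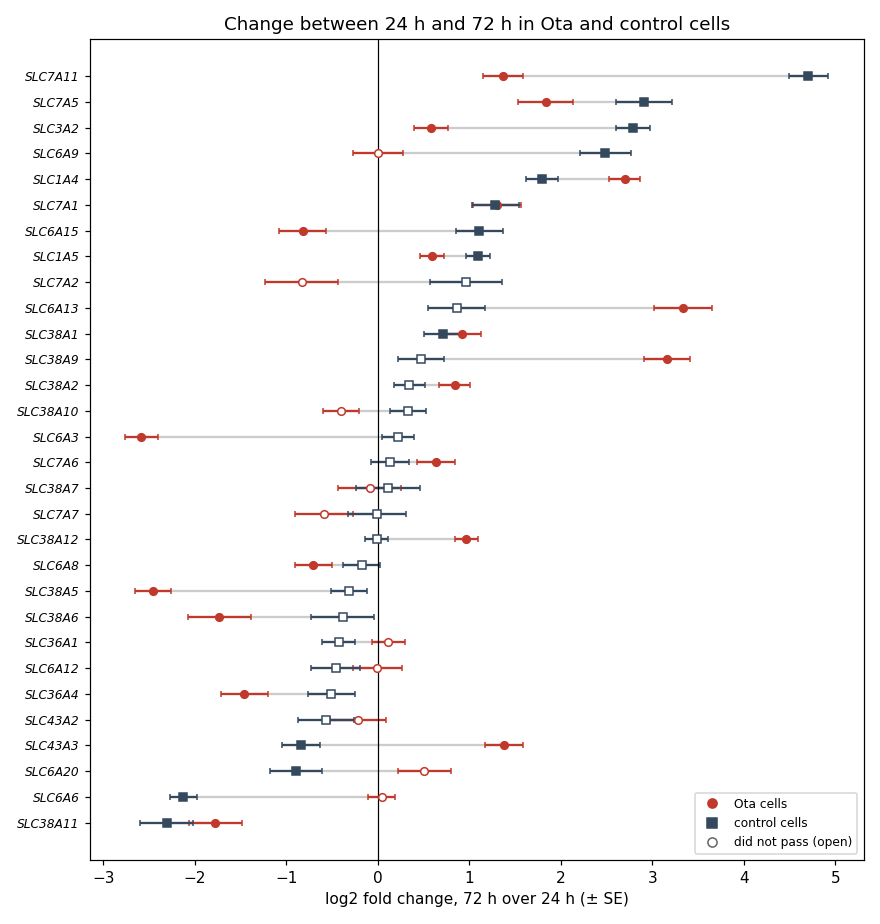
Log2 fold change of 72 h over 24 h for the 30 tested members in Ota cells (red circles) and in control cells (dark squares), with bars of 1 standard error and a grey line between both values of a gene. Filled symbols passed the test and open ones did not. SLC7A11, SLC3A2, SLC6A9 and SLC6A15 have the Ota symbol far to the left of the control symbol. SLC38A9, SLC6A13, SLC43A3 and SLC6A6 have it far to the right.

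SLC7A11 had the largest rise with time of any member in control cells. It encodes the light chain of the cystine and glutamate exchanger, which brings in cystine for glutathione. It read 5.90, 6.00 and 6.03 on the 24 h Ota arrays, against 6.32, 5.98 and 6.59 in control cells. At 72 h it read 7.56, 6.83 and 7.66 with Ota, against 10.93, 11.02 and 11.07 in control cells. The arrays overlapped at 24 h, whereas at 72 h every Ota array lay far below every control array. The log2 fold change was -0.32 ± 0.22 at 24 h (SE; adjusted p = 0.221) and -3.66 ± 0.22 at 72 h (adjusted p = 1.2e-07). Over time SLC7A11 rose by 1.37 ± 0.22 in Ota cells and by 4.71 ± 0.22 in control cells. Its other probe set gave -1.78 ± 0.37 at 24 h (adjusted p = 0.0012) and -3.58 ± 0.37 at 72 h, so the probe sets differ on whether the gene had fallen by 24 h and both place it far below control at 72 h.

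SLC3A2 encodes the CD98 heavy chain, which carries SLC7A11 and the other light chains to the cell surface. At 24 h it read 8.42, 8.17 and 8.46 with Ota, against 7.91, 7.88 and 7.30 in control cells. By 72 h the Ota arrays read 8.80, 9.17 and 8.82, against 10.62, 10.35 and 10.49 in control cells. All Ota arrays were above control at 24 h and all were below it at 72 h, and SLC3A2 was the 1 member called as higher at 24 h and lower at 72 h. Its log2 fold change was 0.65 ± 0.19 at 24 h (adjusted p = 0.01), which becomes -1.20 with spike-in scaling, and -1.56 ± 0.19 at 72 h (adjusted p = 2.3e-05). The effects differed by -2.21 ± 0.27 between the times (adjusted p = 6.8e-05). Over time SLC3A2 changed by 0.58 ± 0.19 in Ota cells and by 2.79 ± 0.19 in control cells (adjusted p = 0.0188 and 2.8e-06). The call in Ota cells ended with quantile normalization (0.37) and centring (0.30).

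Of the tested light chains that share this heavy chain, SLC7A11 and SLC7A7 fell at 72 h, whereas SLC7A5 and SLC7A6 did not pass. SLC7A5, the exchanger for large neutral amino acids, averaged 6.01 ± 0.65 in Ota cells and 5.36 ± 0.13 in control cells at 24 h, and 7.85 ± 0.40 and 8.26 ± 0.30 at 72 h (SD, n = 3 each). The Ota effect did not pass at either time (0.66 ± 0.30, adjusted p = 0.0794, and -0.42 ± 0.30, adjusted p = 0.257). At 24 h both call and direction depend on the scaling: SLC7A5 rose with quantile normalization (1.14) and centring (1.22) and fell with spike-in scaling (-1.19). Without replicate 2 of the 24 h Ota cells, which lay lowest of the 3 Ota arrays, the 24 h value was 1.03 and passed (adjusted p = 0.00278). SLC7A5 rose with time in both kinds of cells, by 1.83 ± 0.30 in Ota cells and 2.91 ± 0.30 in control cells. SLC7A7, which exports cationic amino acids at the basolateral side, read 4.63, 5.29 and 3.76 with Ota, against 5.32, 5.99 and 5.45 in control cells at 24 h. The 72 h arrays read 4.06, 4.06 and 3.80 with Ota, against 5.71, 5.57 and 5.45 in control cells. No Ota array reached a control array at either time. SLC7A7 fell by 1.03 at 24 h (adjusted p = 0.014) and fell by 1.60 at 72 h (adjusted p = 9.0e-04). Its 24 h value was -0.82 without replicate 2 of the control cells (adjusted p = 0.0616) and -0.63 without replicate 3 of the Ota cells. Quantile normalization and centring also ended that call, at -0.63 and -0.47. SLC7A6, a related exchanger of cationic for neutral amino acids, did not pass at 24 h (-0.18) or 72 h (0.33), while its other probe sets read -1.47 ± 0.34 and -1.15 ± 0.46 at 24 h and -0.05 ± 0.34 and -0.33 ± 0.46 at 72 h. Without replicate 2 of the 72 h Ota cells its 72 h value was 0.58 (adjusted p = 0.0121).

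**Figure D3:**
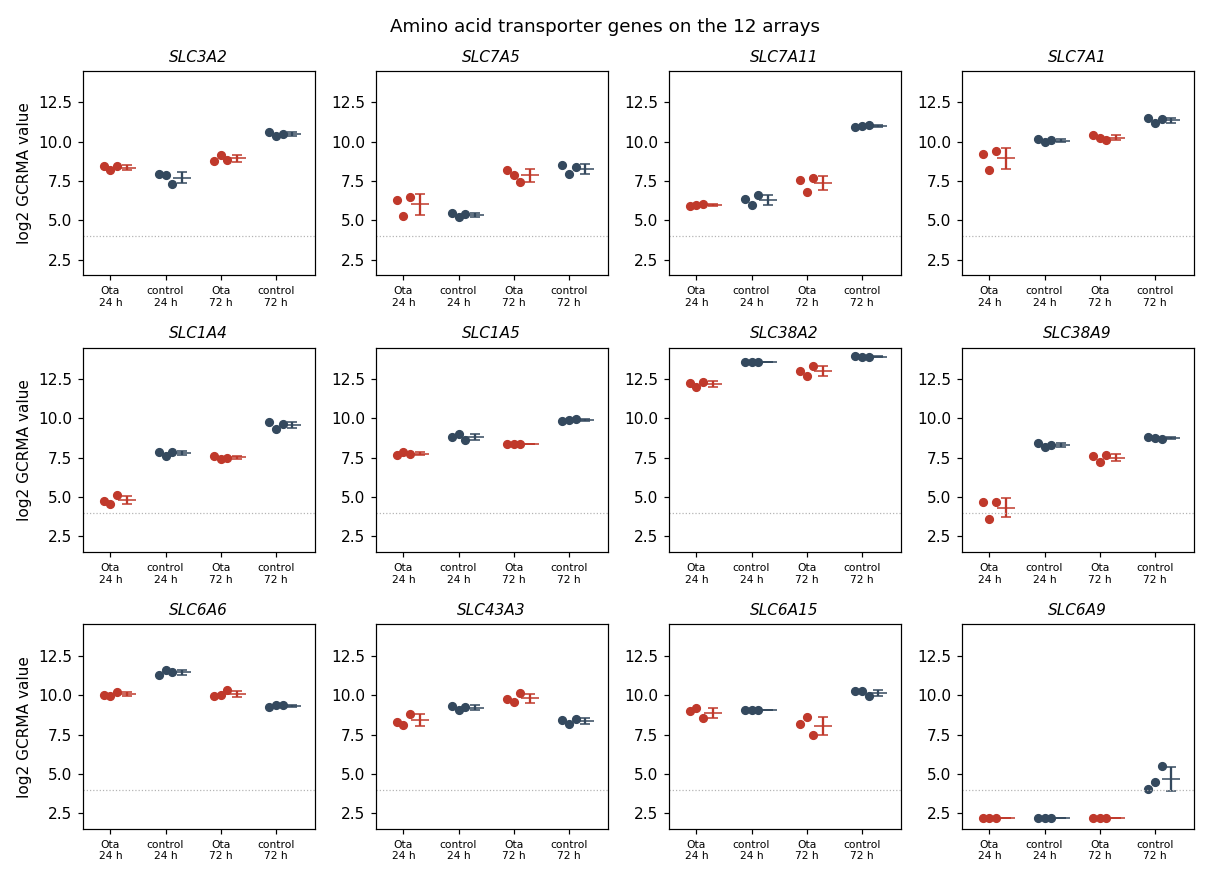
Log2 GCRMA values of 12 of the members on each array, with Ota (red) left of control (dark) at 24 h and then at 72 h. Points are arrays, the horizontal mark beside them is the mean and the bar 1 SD (n = 3); the dotted line is the filter value of 4. SLC7A11 and SLC3A2 stand highest in the 72 h control cells. SLC1A4 and SLC38A9 stand lowest in the 24 h Ota cells. SLC6A6 and SLC43A3 are lower with Ota at 24 h and higher with Ota at 72 h, a 72 h difference that does not pass with spike-in scaling.

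The cationic amino acid carriers both ended below control. SLC7A1, the widely expressed carrier of arginine and lysine whose promoter letters are shown above, read 9.22, 8.20 and 9.39 with Ota at 24 h, against 10.15, 9.95 and 10.09 in control cells. After 72 h it read 10.39, 10.24 and 10.07 with Ota and 11.47, 11.16 and 11.42 in control cells. No Ota array reached its controls at either time, and replicate 2 lay lowest of the 24 h Ota arrays. The log2 fold change was -1.13 ± 0.26 at 24 h (adjusted p = 0.00259) and -1.11 ± 0.26 at 72 h (adjusted p = 0.00283). At 24 h the gene's other probe sets read 0.13 ± 0.18 and 0.03 ± 0.24, with the opposite sign and no call, so the early fall rests on 1 of 3 probe sets. At 72 h they read -0.68 ± 0.18 and -0.71 ± 0.24 and both fell. SLC7A2, a second arginine carrier, read 6.51, 5.21 and 7.21 with Ota at 24 h, against 6.31, 6.01 and 6.15 in control cells. Its 72 h values were 5.33, 5.97 and 5.13 with Ota, against 7.13, 7.20 and 7.03 in control cells. Its Ota arrays spread around the controls at 24 h and all lay below them at 72 h. SLC7A2 fell by 1.64 at 72 h (adjusted p = 0.00356), and its 24 h value was 0.15 ± 0.40, or 0.70 without replicate 2 of the Ota cells (adjusted p = 0.0333) and -1.70, a fall, with spike-in scaling.

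Both tested neutral exchangers of SLC1 fell at both times, and both rose with time in Ota and in control cells, though the rise of SLC1A5 in Ota cells (0.59 ± 0.13) ended with quantile normalization (0.35) and centring (0.32). SLC1A4 exchanges alanine, serine and cysteine. It read 4.76, 4.58 and 5.13 with Ota at 24 h, against 7.86, 7.63 and 7.89 in control cells. At 72 h it read 7.62, 7.45 and 7.48 with Ota, against 9.76, 9.36 and 9.64 in control cells. The groups were far apart at both times, and the 72 h Ota arrays lay just below the 24 h control arrays. The log2 fold change was -2.97 ± 0.17 at 24 h (adjusted p = 7.8e-08) and -2.07 ± 0.17 at 72 h (adjusted p = 1.3e-06), a narrowing of 0.90 ± 0.24 (adjusted p = 0.00931). The narrowing did not pass with quantile normalization (0.54, adjusted p = 0.066). All 4 of its passing probe sets had this sign at both times, but 1 of them gave -0.37 ± 0.23 at 24 h and did not pass, and by that probe set the gap widened. SLC1A5, the main glutamine exchanger of many proliferating cells, read 7.69, 7.85 and 7.72 with Ota at 24 h, against 8.81, 9.01 and 8.64 in control cells. By 72 h the Ota arrays read 8.35, 8.36 and 8.35, against 9.83, 9.92 and 9.98 in control cells. Its arrays were tight within groups and did not overlap. SLC1A5 fell by 1.06 at 24 h (adjusted p = 2.7e-05) and fell by 1.56 at 72 h (adjusted p = 1.5e-06). The test of the difference gave -0.50 ± 0.19 (adjusted p = 0.0422), and it did not pass in 10 of the 12 fits that left out 1 array, all but those without replicate 3 of the 24 h Ota cells or replicate 2 of the 24 h control cells (-0.54 to -0.41, adjusted p up to 0.0984). It turned to 0.46 with spike-in scaling.

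The sodium-coupled SLC38 carriers were the largest tested family, with 9 genes. At 24 h 5 fell and 1 rose, and at 72 h 6 fell, with medians of -0.74 and -0.91. The share called, 66.7% at both times, is near the 61.3% and 60.1% of all genes, of which 40.5% and 35.2% fell. With centring the 24 h falls of SLC38A12 and SLC38A7 ended. At 72 h 0 of the 9 rose in limma, and the count was also 0 at an unadjusted p under 0.05, but SLC38A12 rose with quantile normalization (0.43) and centring (0.52) and SLC38A1 with centring (0.59). SLC38A2, which loads small neutral amino acids and is known to answer amino acid starvation, read 12.22, 11.97 and 12.33 with Ota at 24 h, against 13.58, 13.60 and 13.58 in control cells. The 72 h arrays read 13.02, 12.68 and 13.34 with Ota, against 13.96, 13.90 and 13.92 in control cells. The control arrays nearly coincided and all Ota arrays lay below them. SLC38A2 fell by 1.41 at 24 h (adjusted p = 2.1e-05) and fell by 0.91 at 72 h (adjusted p = 5.9e-04), with the same sign on all 3 probe sets. SLC38A1, its close relative for glutamine, did not pass at either time (0.10 ± 0.21 and 0.31 ± 0.21), and its 24 h value was 0.66 with centring and -1.75 with spike-in scaling, while its other probe sets gave 0.57 ± 0.18 and 0.77 ± 0.20 at 72 h and passed. SLC38A1 rose by 0.71 ± 0.21 with time in control cells (adjusted p = 0.0261). That call ended in 5 of the 12 fits that left out 1 array, without replicate 2 or 3 of the 24 h control cells or any 72 h control array (0.55 to 0.75), and with spike-in scaling (0.67).

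SLC38A9, the lysosomal arginine sensor that signals to mTORC1, had the largest fall of any member at 24 h. It read 4.70, 3.62 and 4.69 with Ota, against 8.43, 8.17 and 8.30 in control cells. After 72 h it read 7.59, 7.25 and 7.65 with Ota and 8.84, 8.76 and 8.71 in control cells. The 24 h Ota arrays lay near the filter value and the 72 h Ota arrays between them and the controls. SLC38A9 fell by 3.96 at 24 h (adjusted p = 1.6e-07) and fell by 1.27 at 72 h (adjusted p = 9.6e-04), and the gap narrowed by 2.69 ± 0.36 (adjusted p = 1.3e-04). SLC38A7, which exports glutamine from lysosomes, read 4.03, 5.22 and 5.57 with Ota at 24 h, against 6.05, 5.73 and 6.07 in control cells. Its 72 h values were 4.86, 4.80 and 4.88 with Ota, against 5.73, 5.83 and 6.62 in control cells. Replicate 1 lay well below the other Ota arrays at 24 h, and no Ota array reached its controls. SLC38A7 fell by 1.01 at 24 h (adjusted p = 0.0238) and fell by 1.21 at 72 h (adjusted p = 0.00952). The 24 h value was -0.56 without replicate 1 of the Ota cells (adjusted p = 0.0878), and -0.96 and -0.95 without replicate 1 or 3 of the control cells, where it did not pass either. Quantile normalization and centring also ended it (-0.59 and -0.45). The other probe sets of SLC38A7 fell at both times, with -2.41 ± 0.22 and -0.62 ± 0.15 at 24 h.

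SLC38A11, whose substrates are less well known, read 6.57, 6.39 and 6.09 with Ota at 24 h, against 8.43, 8.95 and 8.86 in control cells. At 72 h it read 4.72, 3.86 and 5.13 with Ota, against 6.70, 6.46 and 6.15 in control cells. It was lower with Ota at both times and lower at 72 h than at 24 h in both kinds of cells. In Ota cells that fall with time (-1.78 ± 0.29) did not pass with spike-in scaling (-0.85). The log2 fold change was -2.40 ± 0.29 at 24 h (adjusted p = 2.3e-05) and -1.86 ± 0.29 at 72 h (adjusted p = 1.7e-04). SLC38A6, a neuronal glutamine carrier in rodents, read 7.83, 7.68 and 7.42 with Ota at 24 h, against 8.46, 7.94 and 8.59 in control cells. By 72 h the Ota arrays read 6.00, 5.01 and 6.71, against 7.97, 7.79 and 8.07 in control cells. Its Ota arrays were below control at both times and spread widely at 72 h. SLC38A6 fell by 2.03 at 72 h (adjusted p = 3.0e-04), and its 24 h value of -0.68 ± 0.34 did not pass (adjusted p = 0.103) unless replicate 2 or 3 of the 72 h Ota cells was left out of the fit, which leaves the 24 h value as it is (adjusted p = 0.0223 and 0.04).

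SLC38A5, a glutamine and histidine carrier coupled to proton exchange, was the SLC38 gene that rose at 24 h. It read 5.43, 5.54 and 4.91 with Ota, against 3.53, 3.51 and 3.13 in control cells. The 72 h arrays read 2.74, 3.11 and 2.64 with Ota, against 3.06, 3.07 and 3.09 in control cells. Only the 24 h Ota arrays lay above the filter value, and the gene was tested because of them. The 24 h difference of 1.90 ± 0.20 is therefore given as a description, and the 72 h value was -0.25 ± 0.20 (adjusted p = 0.301). With spike-in scaling the 24 h value was 0.05. SLC38A12 fell at 24 h (-0.74 ± 0.13), a call that ended with centring (-0.18), and its 72 h value was 0.24 ± 0.13. SLC38A10 did not pass at 24 h (0.23, or -1.62 with spike-in scaling; 1 of 3 probe sets had the opposite sign) and fell at 72 h (-0.50 ± 0.20, adjusted p = 0.047). That call ended in 8 of the 12 fits that left out 1 array, those without replicate 1 of the 24 h Ota cells, replicate 3 of the 72 h Ota cells (-0.25) or any control array, and with quantile normalization or centring.

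The proton-coupled SLC36 carriers had 2 tested genes, which moved apart at 24 h. SLC36A4, a carrier with high affinity for proline and tryptophan, read 9.74, 9.95 and 9.71 with Ota at 24 h, against 8.31, 8.87 and 8.89 in control cells. After 72 h it read 8.35, 8.87 and 7.81 with Ota and 7.97, 8.47 and 8.10 in control cells. The Ota arrays lay above control at 24 h and overlapped it at 72 h. SLC36A4 rose by 1.11 ± 0.26 at 24 h (adjusted p = 0.00278), which turns to -0.74 with spike-in scaling, and its 72 h value was 0.16 ± 0.26 (adjusted p = 0.623). Its other probe set gave 0.59 ± 0.20 at 72 h (adjusted p = 0.0231). SLC36A1, which exports small neutral amino acids from lysosomes with protons, fell at 24 h (-0.81 ± 0.18, adjusted p = 0.00242), a call that ended with quantile normalization (-0.37) and centring (-0.25). At 72 h it did not pass (-0.27 ± 0.18).

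Both tested SLC43 genes rose at 72 h, calls that ended for both with spike-in scaling, where SLC43A2 turned direction. SLC43A3, the nucleobase carrier, read 8.33, 8.13 and 8.82 with Ota at 24 h, against 9.33, 9.04 and 9.28 in control cells. Its 72 h values were 9.74, 9.55 and 10.12 with Ota, against 8.45, 8.18 and 8.49 in control cells. The Ota arrays were all below control at 24 h and all above it at 72 h. The log2 fold change was -0.79 ± 0.20 at 24 h (adjusted p = 0.00546; -0.23 and no call with centring) and 1.43 ± 0.20 at 72 h (adjusted p = 8.7e-05; 0.54 and no call with spike-in scaling). The change of the effect between times, 2.22 ± 0.29, passed (adjusted p = 1.2e-04), and both probe sets shared each sign. The fall of SLC43A3 with time in control cells (-0.84 ± 0.20) ended with spike-in scaling (-0.88). SLC43A2, a facilitative carrier of large neutral amino acids, averaged 5.52 ± 0.25 in Ota cells and 4.70 ± 0.42 in control cells at 72 h (SD, n = 3 each) and rose by 0.82 ± 0.30 (adjusted p = 0.0344). That call ended without replicate 2 or 3 of either 72 h group (0.61 to 0.83), with the replicate number as a block (adjusted p = 0.0516) and with spike-in scaling, where the value was -0.07. Its other probe set gave 1.19 ± 0.35 at 24 h and 2.22 ± 0.35 at 72 h and passed at both times.

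The SLC6 carriers, which couple transport to sodium and chloride, had 8 tested genes, of which 4 fell and 1 rose at 24 h and 5 fell and 2 rose at 72 h, 62.5% and 87.5% called against 61.3% and 60.1% of all genes. SLC6A6, the carrier of the osmolyte taurine, read 9.99, 9.96 and 10.19 with Ota at 24 h, against 11.30, 11.58 and 11.45 in control cells. At 72 h it read 9.96, 10.00 and 10.31 with Ota, against 9.25, 9.35 and 9.36 in control cells. The Ota arrays sat near the same level at both times, while the control arrays were lower at 72 h. SLC6A6 fell by 1.40 at 24 h (adjusted p = 6.5e-06), and it rose by 0.77 ± 0.14 at 72 h (adjusted p = 6.3e-04), which is -0.12 and no call with spike-in scaling. Over time SLC6A6 changed by 0.04 ± 0.14 in Ota cells (adjusted p = 0.83) and by -2.13 ± 0.14 in control cells (adjusted p = 2.8e-06). Its other probe sets also fell at 24 h (-3.36 ± 0.31 and -2.75 ± 0.16) and gave 0.33 ± 0.31 and -0.17 ± 0.16 at 72 h with no call, so the 72 h rise rests on 1 of 3 probe sets.

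SLC6A12 and SLC6A13 are carriers of the transmitter GABA, and SLC6A12 also carries the osmolyte betaine. SLC6A12 read 2.51, 2.43 and 2.50 with Ota at 24 h, against 5.24, 4.44 and 4.70 in control cells. By 72 h the Ota arrays read 2.42, 2.42 and 2.58, against 3.86, 4.15 and 4.98 in control cells. All Ota arrays were under the filter value, and the gene was tested because of its control arrays. The differences of -2.31 ± 0.27 and -1.86 ± 0.27 are therefore given as a description and are of uncertain size. SLC6A13 read 5.03, 4.92 and 6.01 with Ota at 24 h, against 8.60, 8.79 and 9.70 in control cells. The 72 h arrays read 8.84, 8.59 and 8.54 with Ota, against 9.72, 9.99 and 9.96 in control cells. Its Ota arrays lay far below control at 24 h and closer at 72 h. SLC6A13 fell by 3.71 at 24 h (adjusted p = 1.4e-06) and fell by 1.23 at 72 h (adjusted p = 0.00501). The second probe set gave -0.28 ± 0.26 at 24 h (adjusted p = 0.365) and -1.01 ± 0.26 at 72 h. The probe sets therefore share the 72 h fall and differ on the 24 h fall and on the sign of its change with time. The brightest probe set of SLC6A13 ends in _x_at. The second had group means of 3.19 to 4.20, under or near the filter value, and exceeded 4 on 3 arrays, so its sizes are uncertain.

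SLC6A15, a carrier of branched-chain amino acids and proline best known from neurons, read 8.97, 9.16 and 8.55 with Ota at 24 h, against 9.07, 9.06 and 9.06 in control cells. After 72 h it read 8.17, 8.59 and 7.45 with Ota and 10.27, 10.30 and 9.95 in control cells. The groups overlapped at 24 h and were apart at 72 h. SLC6A15 fell by 2.10 at 72 h (adjusted p = 2.6e-05), with -0.17 ± 0.26 at 24 h (adjusted p = 0.586), and the difference of the effects passed (-1.93 ± 0.36, adjusted p = 0.0012). SLC6A9, the glycine carrier, read 2.19, 2.20 and 2.18 with Ota at 24 h, against 2.18, 2.17 and 2.19 in control cells. Its 72 h values were 2.19, 2.19 and 2.19 with Ota, against 4.03, 4.48 and 5.49 in control cells. Only the 72 h control arrays lay over the filter value, and the gene was tested because of them. The 72 h difference of -2.48 ± 0.28 is therefore given as a description, and the 24 h difference was 0.01 ± 0.28, or -1.84 with spike-in scaling.

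SLC6A20, the proline carrier of the kidney tubule, read 5.70, 6.69 and 5.45 with Ota at 24 h, against 6.18, 5.83 and 6.13 in control cells. At 72 h it read 6.47, 6.14 and 6.75 with Ota, against 5.00, 5.41 and 5.05 in control cells. The groups overlapped at 24 h, and at 72 h all Ota arrays were above control. SLC6A20 rose by 1.30 ± 0.29 at 72 h (adjusted p = 0.00192), which is 0.41 and no call with spike-in scaling. In control cells its change with time of -0.90 ± 0.29 (adjusted p = 0.0386) ended in each of the 3 scalings, with the replicate block (adjusted p = 0.055) and in 7 of the 12 fits that left out 1 array, those without replicate 1 of the 72 h Ota cells or any control array. SLC6A8, the creatine carrier, read 9.60, 9.85 and 8.99 with Ota at 24 h, against 10.19, 10.01 and 9.81 in control cells. By 72 h the Ota arrays read 8.84, 8.60 and 8.87, against 9.82, 9.86 and 9.79 in control cells. Replicate 2 of the Ota cells lay above the lowest control array at 24 h, and the groups were apart at 72 h. SLC6A8 fell by 1.06 at 72 h (adjusted p = 7.7e-04). Its 24 h fall of 0.52 (adjusted p = 0.0416) becomes 0.04 with centring, and the call also ended with quantile normalization (-0.46). It ended in 8 of the 12 fits that left out 1 array, those without replicate 1 or 3 of the 24 h Ota cells (-0.28 without replicate 3), replicate 1 of the 72 h Ota cells, replicate 1 or 2 of the 24 h control cells, or any 72 h control array. The other probe sets of SLC6A8, both ending in _x_at, gave -0.75 ± 0.28 and -0.94 ± 0.34 at 24 h and passed. At 72 h they gave -2.04 ± 0.28 and -2.25 ± 0.34. By both the effect also differed between the times (-1.30 ± 0.39 and -1.31 ± 0.48), which it did not by the brightest probe set.

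SLC6A3, the dopamine carrier, read 4.97, 4.51 and 5.21 with Ota at 24 h, against 1.94, 1.97 and 1.96 in control cells. The 72 h arrays read 2.19, 2.57 and 2.19 with Ota, against 2.17, 2.17 and 2.18 in control cells. Only the 24 h Ota arrays passed the filter value, and the gene was tested because of them. Its 24 h difference of 2.94 ± 0.18, or 1.09 with spike-in scaling, is therefore given as a description and is of uncertain size. Its 72 h value was 0.14 ± 0.18, or -0.75 with spike-in scaling.

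**Figure D4:**
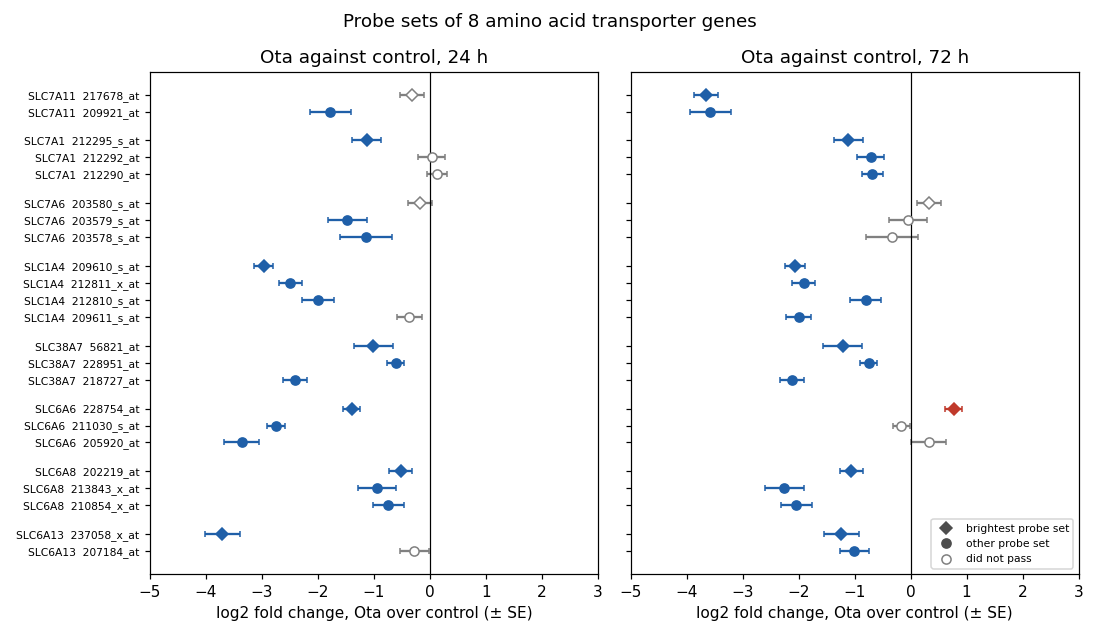
Log2 fold change of Ota over control, with bars of 1 standard error, for each passing probe set of 8 members, chosen for illustration, at 24 h (left) and 72 h (right). Diamonds are the brightest probe set, which stands for the gene, and open symbols did not pass. SLC7A11, SLC7A1, SLC1A4 and SLC6A13 have probe sets on both sides of the threshold at 24 h that all fell at 72 h, whereas for SLC6A6 all fell at 24 h and 1 of 3 rose at 72 h, a rise that ends with spike-in scaling.

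Probe sets of 1 gene did not always report the same size. Of the 30 tested members 16 had more than 1 passing probe set. Probe sets of a gene can read different transcript ends and variants, and which transcript each reads was not tested. SLC7A11, SLC7A1, SLC1A4, SLC6A13, SLC7A6, SLC38A1 and SLC43A2 had a probe set that passed the test and one that did not at 24 h. The values given for these genes are those of the brightest probe set unless another is named.

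The 25 members that could not be tested include the best known reabsorption carriers of the proximal tubule. SLC6A19 and SLC6A18, apical carriers of neutral amino acids and glycine, reached at most 3.51 and 2.87 on any array. SLC7A9, the light chain of the apical cystine carrier whose loss causes cystinuria, reached 3.16. SLC7A8, a basolateral exchanger, reached 4.15 and passed 4 on 1 array, and SLC1A1, the apical glutamate carrier, reached 3.58. The other untested members were SLC1A2, SLC1A3, SLC1A6, SLC1A7, SLC38A3, SLC38A4, SLC43A1, SLC6A11, SLC6A14, SLC6A16, SLC6A17, SLC6A2, SLC6A4, SLC6A5, SLC6A7, SLC7A10, SLC7A13, SLC7A14, SLC7A3 and SLC7A4. Their highest values ran from 2.04 in SLC38A3 to 4.80 in SLC6A16, which passed 4 on 2 arrays. Of the 30 tested members 25 had a mean over 4 in all 4 groups and 3 in 1 group only, namely SLC6A3, SLC6A9 and SLC38A5.

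The members with the amino acid response element letters rose with time in control cells and in Ota cells. All 5 (SLC1A4, SLC1A5, SLC38A1, SLC3A2 and SLC7A1) rose in control cells at 72 h against 24 h, as did 2 of the 18 members whose windows lack these letters, SLC6A9 and SLC7A5, and the call of SLC38A1 is the one that ended with spike-in scaling. Of all tested genes 12.2% rose in that comparison. SLC6A9 passed the filter only through the 72 h control arrays. In Ota cells over time all 5 rose as well (0.58 in SLC3A2 to 2.70 in SLC1A4). The calls of SLC1A5 and SLC3A2 there ended with quantile normalization and with centring. Of the members without the letters SLC38A12, SLC38A2, SLC38A9, SLC6A13, SLC7A5 and SLC7A6 also rose in Ota cells, where 37% of all tested genes rose. These counts of members were made after the values were seen and carry no test. Under Ota at 72 h 4 of the 5 fell and SLC38A1 did not pass. Of the 18 members without the letters 10 fell and 2 rose, and of all tested genes 35.2% fell. SLC7A11 and SLC6A15, which also rose in control cells, had no window.

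Genes of the integrated stress response were examined beside the carriers. Of 16 tested (of 16 listed) regulators and targets 12 rose and 1 fell in control cells over time, 81.2% called against 25.5% of all genes, with a median log2 change of 1.57, against 4.2e-04 over all genes. The largest rises were ATF3 (5.29 ± 0.25), the stress factor DDIT3, also called CHOP (5.02 ± 0.31), and CHAC1, which degrades glutathione (3.05 ± 0.29). CHAC1 averaged 3.30 and 6.36 in control cells at 24 h and 72 h, and 2.82 and 2.75 in Ota cells. It passed the filter only through the 72 h control arrays, so its changes are given as a description. The counts of this list include it. ATF4 itself, named here after its values were seen, rose by 1.63 ± 0.14 in control cells. In Ota cells over time 9 of the 16 rose and 1 fell, 62.5% called and near the 60.3% of all genes. The median there was 0.54, against 0.18 over all genes. The largest rises in Ota cells were CEBPB (2.45 ± 0.26), DDIT3 (2.00 ± 0.31) and TRIB3 (1.75 ± 0.18). ATF4 rose by 0.43 ± 0.14 in Ota cells, and ASNS changed by -0.84 ± 0.25. At 72 h 8 of the 16 fell with Ota and 2 rose, 62.5% called and near the 60.1% of all genes, with a median of -0.57, against -0.11 over all genes. Among the falls were DDIT3 (-3.97 ± 0.31), CHAC1 (-3.61 ± 0.29), ASNS, which makes asparagine (-2.68 ± 0.25), and ATF4 (-2.26 ± 0.14), while EIF2AK4, the kinase that senses uncharged tRNA, rose by 1.61 ± 0.21. At 24 h 6 fell and 4 rose, 62.5% against 61.3% of all genes, with a median of -0.13, against -0.24 over all genes, and with ATF3 at 3.61 ± 0.25, TRIB3 at -1.71 ± 0.18 and CEBPB at -1.32 ± 0.26. The share of the transporter changes that goes with these genes was not tested.

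Genes that connect the carriers to growth signalling and to the cell surface were examined in the same way. Of 23 tested genes (of 27 listed) of amino acid sensing by mTORC1, 8 fell and 3 rose at 24 h and 11 fell and 5 rose at 72 h, 47.8% and 69.6% called against 61.3% and 60.1% of all genes, with medians of -0.24 and -0.53, against -0.24 and -0.11 over all genes. At 24 h RRAGA, a GTPase that recruits mTORC1 to the lysosome where SLC38A9 acts, changed by -3.82 ± 0.26, the mTOR inhibitor DEPTOR by -3.51 ± 0.15 and LAMTOR3, part of the lysosomal scaffold, by -2.26 ± 0.35. SAR1B, a GTPase of vesicle transport and leucine sensing, gave 1.68 ± 0.21, but 2 of its 5 probe sets shared that sign and spike-in scaling turned it to -0.17. At 72 h MLST8, a core subunit of mTOR complexes, changed by -3.73 ± 0.19, the amino acid checkpoint gene NPRL2 by -2.25 ± 0.15 and DEPTOR by -2.20 ± 0.15. MLST8 averaged 3.85 in the 72 h Ota cells, under the filter value. Of 9 tested partners and trafficking genes (of 11 listed) 3 rose and 3 fell at 24 h and 2 rose and 2 fell at 72 h, 66.7% and 44.4% called, with medians of 0.13 and 0.26. NEDD4L, a ubiquitin ligase that removes transporters from the membrane, rose by 3.74 ± 0.20 and 1.61 ± 0.20 at these times. SGK1, the kinase that restrains it, fell, with -2.36 ± 0.21 and -1.19 ± 0.21. STK39, a kinase of ion cotransport, changed by -1.87 ± 0.47 at 24 h, and CLTRN, the partner of apical SLC6 carriers in kidney, by -1.16 ± 0.21 at 72 h.

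Carriers outside the 7 groups and enzymes that use their substrates were listed too. Of 11 tested carriers of other families (of 19 listed) 6 fell and 2 rose at 24 h, and 2 fell and 2 rose at 72 h, 72.7% and 36.4% called against 61.3% and 60.1% of all genes, with medians of -1.24 and 0.02. At 24 h SLC25A12, a mitochondrial aspartate and glutamate carrier, changed by -3.44 ± 0.32, CTNS, the lysosomal cystine exporter, by -3.41 ± 0.20 and SLC66A1, a lysosomal carrier of cationic amino acids, by -3.30 ± 0.29. Their 24 h Ota means were 3.97, 3.06 and 2.56, under the filter value, so the sizes are uncertain. The 72 h Ota mean of CTNS was 3.89. SLC15A4, a lysosomal peptide and histidine carrier, gave 0.81 ± 0.20, or -1.04 with spike-in scaling. At 72 h CTNS and SLC3A1, the heavy chain that pairs with SLC7A9, changed by -4.08 ± 0.20 and -3.34 ± 0.21, and SLC25A13, a relative of SLC25A12, by 1.12 ± 0.21, or 0.23 and no call with spike-in scaling. Of 11 tested enzymes of glutamine, glutamate and glutathione (of 15 listed) 2 rose and 2 fell at 24 h, and 2 rose and 3 fell at 72 h, 36.4% and 45.5% called and below those shares of all genes, with medians of -0.06 and -0.23. GCLM, the modifier subunit of the first enzyme of glutathione synthesis, rose by 2.02 ± 0.30 at 72 h, where the cystine carrier SLC7A11 fell. Its 24 h value of 1.41 ± 0.30 turned to -0.44 with spike-in scaling, and 1 of its 3 probe sets had the opposite sign. BCAT1, which transaminates branched-chain amino acids, rose at 24 h (2.37 ± 0.36; 0.52 and no call with spike-in scaling), and GLUL, glutamine synthetase, fell (-1.48 ± 0.23; 3 of 4 probe sets shared the sign). PYCR1, which makes proline, and GSS, glutathione synthetase, fell at 72 h (-1.89 ± 0.17 and -1.26 ± 0.23).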

How the data were processed

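RNA of HK-2 cells was labelled and hybridised to 12 Affymetrix arrays. The authors deposited 1 log2 expression value per probe set and array. Per the submitters' processing notes they used GCRMA, with no version stated, and whether all arrays were normalized together is not given in the sources used here. Groups follow the labels, and 0 columns belonged to other samples. The number of arrays limits the precision, with a median standard error of 0.235 for members and 0.212 for all genes, and arrays have no read depth.

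Probe sets with 1 symbol that exceeded 4 on 3 or more arrays were kept, and the one with the highest mean over the 12 arrays stood for its gene. Gene names follow the platform annotation, and all 55 member symbols matched a current gene record. A further 3 probe sets with several symbols were left out. The 4 group means were estimated in limma 3.58.1 under R 4.3.3 (lmFit, eBayes; 8 residual and 3.56 prior degrees of freedom), two-sided, with adjustment over 10729 genes. Fold changes are on the log2 scale, with Ota over control or 72 h over 24 h. Values per array were compared by exact permutation over the 10 ways to divide 3 against 3 arrays. The fit was tested on simulated data with independent normal noise, for the 24 h comparison of Ota with control only. It called 10% of the changes of 0.5, 56% of those of 1, 92% of those of 2 and 100% of those of 4. Of its calls 7.19% were false. Only 50 of the 10729 genes were changed at each size, whereas 61.3% of genes were called in the data at 24 h. The recovery and false call shares therefore need not hold for these data.

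Every tested member is named, and values per array are given for members called in an Ota comparison whose log2 fold change was 1 or more in size. From each other list up to 3 genes with the largest change and the 1 largest in the other direction are named. Members, lists and motifs were chosen with earlier results of these data known, and SLC38A12 joined its family list after the files were read. Alternatives were 3 scalings (quantile, centring on the median, poly-A spike-ins), other filters and probe set rules, moderation with a trend, array weights, stricter thresholds, the 2 groups alone, the replicate number as a block, and leaving out each array.

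Equal replicate numbers deviated together at 24 h (r = 0.125, 0.231 and 0.271 between Ota and control arrays, each over 0.1), so the numbers may pair those arrays. The labels do not say so. The reported tests used no pairing, and the replicate number entered only as a block among the alternatives. At 72 h r was -0.0522, 0.139 and 0.192.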

Additional observations from a re-analysis of the deposited data

Results flagged for a closer look

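In 18 of the 30 tested members the effect of Ota at 72 h differed from its effect at 24 h by the test of that difference in limma. The values are the 72 h effect minus the 24 h effect on the log2 scale. Of all tested genes 49.5% passed the same test. Towards lower values moved SLC7A11 (-3.34), SLC6A3 (-2.80), SLC6A9 (-2.49), SLC3A2 (-2.21), SLC38A5 (-2.15), SLC6A15 (-1.93), SLC7A2 (-1.79), SLC38A6 (-1.35), SLC36A4 (-0.95), SLC38A10 (-0.73) and SLC1A5 (-0.50). Towards higher values moved SLC38A9 (2.69), SLC6A13 (2.47), SLC43A3 (2.22), SLC6A6 (2.17), SLC6A20 (1.40), SLC38A12 (0.98) and SLC1A4 (0.90). The calls of SLC1A5, SLC36A4, SLC38A10 and SLC38A6 ended in 10, 11, 9 and 8 of the 12 fits that left out 1 array, with adjusted p up to 0.0984, 0.117, 0.107 and 0.0861. For SLC1A5 these were all but the fits without replicate 3 of the 24 h Ota cells or replicate 2 of the 24 h control cells, and for SLC36A4 all but the one without replicate 2 of the 72 h Ota cells. For SLC38A10 they were all but those without replicate 3 of the 24 h Ota cells or replicate 1 or 2 of the 72 h Ota cells. For SLC38A6 they were all but those without replicate 3 of the 24 h Ota cells, replicate 2 or 3 of the 72 h Ota cells or replicate 3 of the 24 h control cells. In all 3 scalings 6 of the 11 changes towards lower and 5 of the 7 towards higher values stayed calls, and spike-in scaling turned SLC1A5 (0.46), SLC36A4 (0.0096) and SLC38A10 (0.23). Quantile normalization ended the call of SLC1A4 (0.54), quantile normalization and centring that of SLC6A20 (1.09 and 1.12), and spike-in scaling those of SLC38A6 (-0.39) and SLC7A2 (-0.83). SLC6A3, SLC38A5 and SLC6A9 passed the filter only through the 1 group in which each was high. Without replicate 2 of the 72 h Ota cells SLC38A6 gave -0.90, and without replicate 3 of them SLC38A10 gave -0.49. For SLC6A13 and SLC1A4 1 further probe set each had the opposite sign. In each group of 3 arrays no test of a single stray array was made.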

How the results depend on the processing

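Of 3018 values of single members under the alternatives, 2748 kept their side of the threshold, 163 lost and 87 gained a call, and 20 turned direction. Of the 2748, 44 had another sign with no call either way. Single members were not compared in this way for Ota cells over time. Spike-in scaling turned these values. At 24 h they were SLC36A4 -0.74, SLC38A1 -1.75, SLC38A10 -1.62, SLC3A2 -1.20, SLC43A2 -1.38, SLC6A9 -1.84, SLC7A2 -1.70 and SLC7A5 -1.19. At 72 h they were SLC36A4 -0.73, SLC38A12 -0.65, SLC43A2 -0.0695, SLC6A3 -0.75 and SLC6A6 -0.12. For the difference of the effects they were SLC1A5 0.46, SLC36A4 0.0096 and SLC38A10 0.23. Centring turned SLC6A8 at 24 h (0.038). Leaving out probe sets ending in _x_at or _s_at turned SLC7A1 at 24 h (0.13) and, for the difference, SLC7A1 (-0.81) and SLC6A13 (-0.73). Except where an alternative tests fewer genes or arrays by its construction, the cause was not tested.

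The following counts moved by more than 1.5 times. With spike-in scaling 1 member rose and 28 fell at 24 h, 0 rose at 72 h, 14 rose and 6 fell for the difference, 2 fell in Ota cells over time and 2 in control cells. Under that scaling the count of rises at 72 h in limma was also 0 at an unadjusted p under 0.05. With centring 8 rose and 9 fell at 24 h and 8 rose at 72 h, and with quantile normalization 7 rose at 24 h. The calls that were rises over all genes made up 45% with quantile normalization, 61.9% with centring and 1.49% with spike-in scaling at 24 h, and 44.4%, 56.1% and 7.63% at 72 h. Fitting all 56 passing probe sets gave 7 rises and 29 falls at 24 h, 10 and 32 at 72 h, 13 rises for the difference, 25 rises and 12 falls in Ota cells over time, and 15 rises in control cells. Among the 20 genes left without probe sets ending in _x_at or _s_at, 8 fell at 24 h, 2 rose at 72 h, 2 rose and 7 fell for the difference, 4 rose in Ota cells and 5 rose and 2 fell in control cells. A value over 6 as the filter left 22 members, of which 2 rose at 24 h. With no filter 7 fell for the difference, and with an adjusted p under 0.01 the count was 6, with 2 falls in control cells. Array weights gave 7 rises at 72 h and 7 falls in control cells. Asking for a log2 fold change of 1 or more in size left 2 rises at 72 h, 7 rises in Ota cells and 2 falls in control cells.

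Leaving out 1 array gave 4 to 6 rises and 13 to 16 falls at 24 h, 3 to 4 and 17 to 18 at 72 h, 7 to 10 and 7 to 12 for the difference, 12 to 13 and 6 to 8 in Ota cells, and 8 to 12 and 3 to 4 in control cells. Calls gained in the control comparison were SLC38A9 without replicate 2 of the 24 h Ota cells (0.47), SLC6A12 without replicate 3 of the 72 h control cells (-0.79), SLC6A13 and SLC7A2. Calls gained for the difference were SLC38A11, SLC38A2 and SLC7A6 without replicate 2 of the 72 h Ota cells, SLC6A8 and SLC7A7 without replicate 3 of the 24 h Ota cells, and SLC7A5 in 3 fits. With the replicate number as a block, 4 members rose and 15 fell at 24 h and 3 rose and 18 fell at 72 h. Beside the 2 calls it ended, the replicate block added SLC7A5 for the difference (-1.08, adjusted p = 0.0362) and SLC6A13 in control cells over time (0.86, adjusted p = 0.0423). It changed no other call, apart from Ota cells over time, where single calls were not compared. Values under 4 limit the size of any fold change of SLC6A3, SLC6A9, SLC6A12 and SLC38A5. Outside the members the same holds for CHAC1 and for the falls given for SLC25A12, CTNS, SLC66A1 and MLST8.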
